A study of Homo sapiens with 4 samples.

Results

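Small nucleolar RNA (snoRNA) host genes were taken from the gene count table by symbol, as *SNHG* followed by a number, *GAS5*, *ZFAS1* and *EPB41L4A-AS1*. The rule gave 31 of the 28278 gene symbols. *TAF1D-AS1* was also sought, and no row of the table used here carries that symbol. RNA-seq had been performed on HepG2 cells, a human liver cancer line, after 24 h of Sorafenib, a multikinase inhibitor. Both groups received the drug, so its own effect cannot be read from these data. The control group and the sgUSP22 group held 2 libraries each. The sgUSP22 cells were a stable population made with a lentivirus carrying Cas9 and a guide RNA against *USP22*. This gene encodes a ubiquitin-specific protease that removes ubiquitin from histones and other proteins. By a figure legend of the study, the control cells stably expressed Cas9 with control guide RNAs. Nothing states that the replicates came from separate cultures, so p-values measure the spread between these libraries only, which may be technical.

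A snoRNA host gene carries snoRNAs in its introns. After splicing, the excised intron is trimmed to the snoRNA, which guides 2′-O-methylation (box C/D) or pseudouridylation (box H/ACA) of other RNAs, chiefly ribosomal RNA. The spliced exons of most hosts in the *SNHG* family encode no long protein. Several of these transcripts begin with a terminal oligopyrimidine (TOP) tract, a C followed by a run of pyrimidines, like the mRNAs of ribosomal proteins. Translation of TOP mRNAs depends on mTORC1 and on the tract-binding protein LARP1, and several spliced hosts, *GAS5* among them, are degraded by nonsense-mediated decay (NMD) when ribosomes engage their short open reading frames. The question addressed was whether the hosts fell in sgUSP22 libraries as ribosomal protein genes did.

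A tract of C followed by at least 4 pyrimidines was searched on the transcribed strand around the start listed first for each gene in RefSeq (GRCh38.p14). Of the hosts, 27 had such an entry, and 7 of them (25.9%) had the tract exactly at that start, against 4.04% of all 27305 promoters in the table and 67.7% of 62 ribosomal protein promoters. The 6 that passed the filter on low counts are shown from 20 bases before the start to base 30 after it, with the tract in capitals, because they carry the feature that the comparison rests on.
*SNHG12* (chr1:28581844-28581893, minus strand): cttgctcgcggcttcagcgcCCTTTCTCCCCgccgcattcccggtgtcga
*SNHG32* (chr6:31834896-31834945, plus strand): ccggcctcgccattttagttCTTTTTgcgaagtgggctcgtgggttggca
*ZFAS1* (chr20:49278622-49278671, plus strand): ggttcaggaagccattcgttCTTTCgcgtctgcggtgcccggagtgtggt
*SNHG5* (chr6:85678704-85678753, minus strand): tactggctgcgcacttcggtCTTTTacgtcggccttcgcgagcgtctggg
*SNHG19* (chr16:2155329-2155378, minus strand): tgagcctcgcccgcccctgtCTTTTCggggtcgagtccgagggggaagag
*SNHG4* (chr5:139274081-139274130, plus strand): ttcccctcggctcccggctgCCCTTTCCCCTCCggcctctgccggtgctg
Annotations differ in where some hosts start. For *GAS5* the listed start lies 1056 bases, and for *SNHG29* 50 bases, from the start of the canonical transcript in GENCODE 44. Both have a tract exactly at the canonical start, and these windows (hg38) are shown with that of *EPB41L4A-AS1*, which has no tract within 20 bases of its start in either annotation.
*GAS5* (chr1:173867960-173868009, minus strand): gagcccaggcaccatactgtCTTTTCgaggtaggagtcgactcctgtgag
*SNHG29* (chr17:16439017-16439066, plus strand): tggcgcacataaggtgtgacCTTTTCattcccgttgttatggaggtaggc
*EPB41L4A-AS1* (chr5:112160506-112160555, plus strand): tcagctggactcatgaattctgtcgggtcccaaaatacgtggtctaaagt
The seventh host with the tract at its start was *SNHG18*, which had 0 counts in all 4 libraries. When the tract was allowed to begin up to 5 bases from the start, 12 of 27 hosts (44.4%) had it, against 21.1% of all promoters. Within 20 bases the shares were 74.1% and 50.8%. At the canonical starts, examined after the data were seen, 4 of 31 hosts (12.9%) had the tract exactly at the start, namely *GAS5*, *SNHG12*, *SNHG29* and *ZFAS1*, against 2.80% of all 61228 starts and 75.3% of 77 ribosomal protein starts. Which hosts carry the tract therefore depends on the annotated start. In the RefSeq table *SNHG6*, *SNHG9*, *SNHG15* and *SNHG25* had no entry.

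Total counts ranged from 62030307 to 64728272. Levels are given in CPM, counts scaled to library size after TMM normalization. Where a gene is listed at 0, up to 3 counts, 0.0463 to 0.0484 CPM by unscaled totals, are allowed by counting error alone. The targeted gene did not fall at the RNA level but rose (log2 fold change 0.22, standard error 0.034, adjusted p = 3.94e-04, edgeR). *USP22* stood at 16450 and 16537 counts in control and 20279 and 20368 counts in sgUSP22 replicates 1 and 2, so every direction given here follows the label. Counts do not measure the protein, which the study examined by Western blot. Markers did not match the label HepG2. Of 24 hepatocyte markers, 22 were at or under 20 counts in every library and 13, *ALB* and *APOA1* included, were listed at 0 in all, with summed levels of 19.3 to 19.97 CPM in control and 14.1 to 14.2 CPM in sgUSP22. The 9 mesenchymal markers summed to 2100 to 2105 CPM in control and 2218 to 2245 CPM in sgUSP22, and 6 blood markers stayed at or under 20 counts. The 7 epithelial markers summed to 1816 to 1854 CPM in control and 1383 to 1441 CPM in sgUSP22, although 4 of them were at or under 20 counts in every library. Neither sum stands for a shared shift. Log2 fold changes ran from -0.58 to 1.13 in the 8 mesenchymal markers tested and from -0.43 to 0.19 in the 3 epithelial markers tested. The 5 neural markers, 3 of them at or under 20 counts in every library, summed to between 20.7 and 22.4 CPM in the 4 libraries. The part of these differences in the host gene results was not tested, and fewer cells of a type cannot be told apart from less RNA per cell.

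Most expressed hosts were lower in sgUSP22 libraries. The filter left 29 of the 31 hosts, and *SNHG18* and *SNHG27* were listed at 0 throughout. By the quasi-likelihood test of edgeR, adjusted by Benjamini-Hochberg over all 15150 genes tested, 15 of the 29 fell at an adjusted p below 0.05, 3 rose and 11 did not pass. Over all genes tested, 25.8% fell and 26.8% rose. The median log2 fold change of the 29 was -0.41, while that of all genes tested was 0.00091. With a further threshold of 1.5-fold, 6 hosts were lower, against 7.25% of all genes, and 2 were higher, against 8.88%. The former count was 3 without control replicate 1 or with library size alone and 10 without sgUSP22 replicate 1, and the latter was 1 without control replicate 2, without sgUSP22 replicate 2, without the filter or in DESeq2. The sgUSP22 libraries lay below both control libraries in 20 hosts (37.6% of all genes did so) and above both in 5 (38.3% of all genes did so). Per pair of libraries, the median host difference in log2(CPM + 0.5) ran from -0.32 to -0.25 between the groups, and within the groups it was -0.049 and -0.040. All hosts together took 0.404% and 0.383% of the counts in control replicates 1 and 2, and 0.303% and 0.301% in the sgUSP22 replicates. *SNHG29*, *GAS5*, *SNHG32* and *ZFAS1* supplied 77.0% to 78.5% of these host counts.

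**Figure D1:**
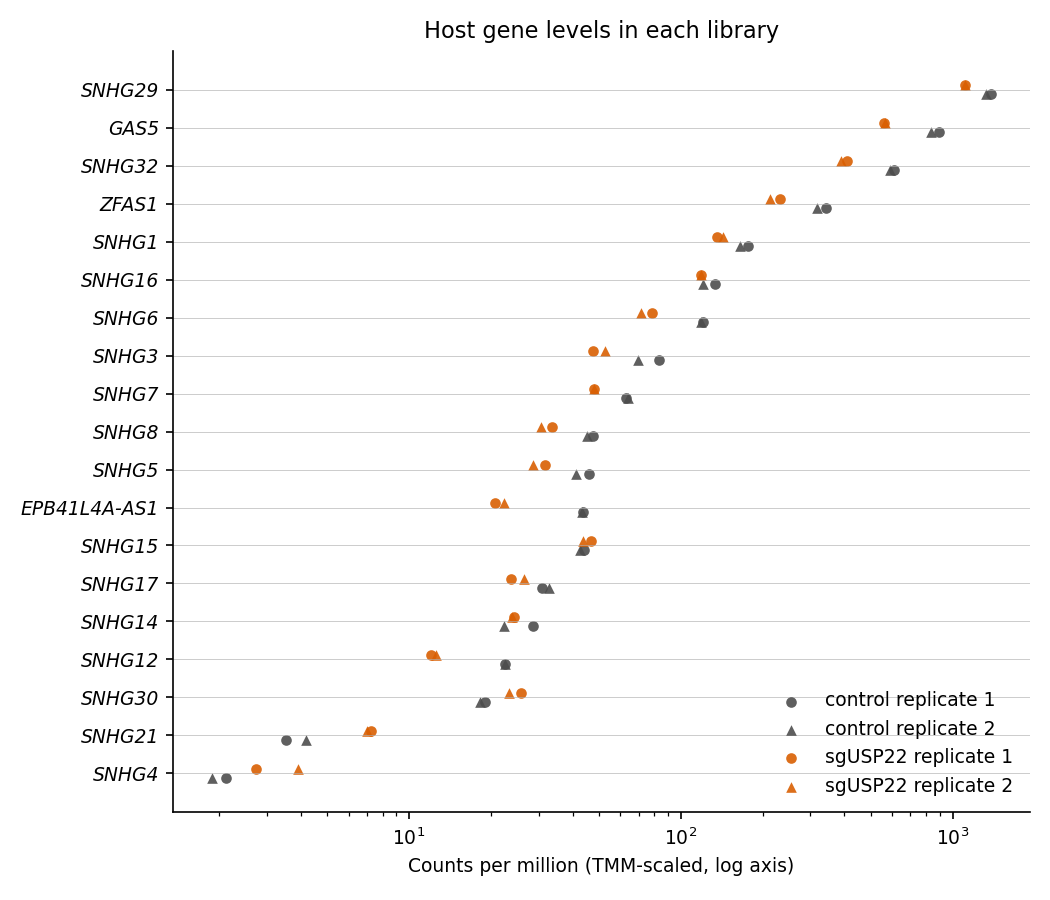
Levels of 19 hosts in each of the 4 libraries, in TMM-scaled CPM on a log axis. Grey symbols are control and orange symbols sgUSP22, circles replicate 1 and triangles replicate 2. Orange lies left of grey for 14 of the 17 hosts with a mean of at least 10 CPM, overlaps it for *SNHG14* and *SNHG15*, and lies right of it for *SNHG30*, as it does for the 2 less abundant hosts *SNHG21* and *SNHG4*.

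*EPB41L4A-AS1*, host of the H/ACA snoRNA SNORA13 and antisense to *EPB41L4A*, had 43.8 and 43.3 CPM in control replicates 1 and 2 and 20.7 and 22.4 CPM in sgUSP22 replicates 1 and 2. The groups were far apart relative to their spread, and this was the largest fall among hosts that passed the test (log2 fold change -1.02, standard error 0.067, adjusted p = 1.75e-06, edgeR). *SNHG12*, host of SNORA16A, had 22.6 CPM in both control libraries and 12.0 and 12.6 CPM in the sgUSP22 libraries, or 54.5% of control (log2 fold change -0.87, standard error 0.085, adjusted p = 1.98e-05, edgeR). *SNHG6*, host of SNORD87, had 121 and 119 CPM in control and 78.6 and 71.3 CPM in sgUSP22 (log2 fold change -0.68, standard error 0.051, adjusted p = 3.54e-06, edgeR). In all 3 the replicates agreed closely beside the gap between groups.

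*GAS5*, named for its accumulation in growth-arrested cells and known as a decoy for the glucocorticoid receptor, was the second most abundant host. It had 890 and 834 CPM in control and 559 and 565 CPM in sgUSP22, so that both sgUSP22 values lay close together and well below control (log2 fold change -0.62, standard error 0.037, adjusted p = 9.26e-07, edgeR). *SNHG3*, which holds the 2 copies of SNORA73 (U17), varied more between replicates, at 82.8 and 69.6 CPM in control and 47.6 and 52.7 CPM in sgUSP22 (log2 fold change -0.60, standard error 0.080, adjusted p = 1.61e-04, edgeR). *SNHG32*, host of SNORD48 and SNORD52, fell from 607 and 589 CPM to 409 and 387 CPM (log2 fold change -0.59, standard error 0.037, adjusted p = 1.28e-06, edgeR). It stood just past the 1.5-fold threshold and *ZFAS1* stood just short of it. Relative to transcript length, *GAS5* had 1180 CPM per kb in control and *SNHG32* 765 CPM per kb.

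*ZFAS1*, host of the SNORD12 family, had 342 and 318 CPM in control and 231 and 213 CPM in sgUSP22 (log2 fold change -0.57, standard error 0.049, adjusted p = 8.35e-06, edgeR). *SNHG5*, host of SNORD50A and SNORD50B (U50), had 46.0 and 41.3 CPM in control and 31.6 and 28.5 CPM in sgUSP22. *SNHG8*, host of SNORA24, had 47.4 and 45.2 CPM against 33.6 and 30.7 CPM. Both fell to a similar degree. *SNHG5* fell by 0.54 on the log2 scale with a standard error of 0.075 (adjusted p = 2.06e-04, edgeR) and *SNHG8* fell by 0.53 with one of 0.064 (adjusted p = 8.97e-05).

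Smaller falls were seen in *SNHG7*, *SNHG17*, *SNHG1* and *SNHG29*. *SNHG7* had 63.1 and 63.8 CPM in control and 48.0 and 47.8 CPM in sgUSP22 (log2 fold change -0.41, standard error 0.047, adjusted p = 6.29e-05, edgeR). *SNHG17*, host of the SNORA71 family, had 30.9 and 32.9 CPM in control and 23.8 and 26.4 CPM in sgUSP22 (-0.34, standard error 0.077, adjusted p = 0.00391). *SNHG1*, an intron-rich host of box C/D snoRNAs, had 176 and 166 CPM in control and 135 and 143 CPM in sgUSP22 (-0.29, standard error 0.045, adjusted p = 3.78e-04). In each of these the groups were separate, yet sgUSP22 kept 75.5% of the control level or more. *SNHG29*, host of SNORD49A, SNORD49B and SNORD65, was the most abundant host, with 1382 and 1325 CPM in control and 1110 and 1109 CPM in sgUSP22 (-0.29, standard error 0.031, adjusted p = 3.85e-05).

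Of the remaining hosts of at least 10 CPM, 3 did not pass the test. *SNHG16* had 134 and 121 CPM in control and 119 and 118 CPM in sgUSP22 (log2 fold change -0.11, standard error 0.049, adjusted p = 0.0943, edgeR). Control replicate 1 stood above the other 3 libraries, and without control replicate 2 the value was -0.18 with an adjusted p of 0.0105. *SNHG14*, the long transcript of the Prader-Willi region that runs antisense to *UBE3A*, had 28.5 and 22.4 CPM in control and 24.3 and 24.0 CPM in sgUSP22, with the control libraries on either side (-0.08, standard error 0.11, adjusted p = 0.589). *SNHG15*, host of SNORA9, had 44.1 and 42.6 CPM in control and 46.6 and 43.8 CPM in sgUSP22 and the groups overlapped (0.06, standard error 0.056, adjusted p = 0.417). The *SNHG14* value turned to 0.11 without control replicate 1, and without control replicate 2 it was -0.24 and passed (adjusted p = 0.0480). In all, 13 of the 17 hosts of at least 10 CPM fell and 1 rose, with a median log2 fold change of -0.53. Among all 9672 genes of that level, 32.0% fell and 33.2% rose.

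The 3 hosts that rose were *SNHG30*, *SNHG4* and *SNHG21*. *SNHG30* had 19.1 and 18.2 CPM in control and 25.9 and 23.4 CPM in sgUSP22 (log2 fold change 0.40, standard error 0.084, adjusted p = 0.00265, edgeR). *SNHG21* had 216 and 260 counts in control and 476 and 454 counts in sgUSP22, which made it the largest rise (0.89, standard error 0.14, adjusted p = 5.55e-04). *SNHG4* had 129 and 118 counts in control and 180 and 253 counts in sgUSP22, with the sgUSP22 libraries well apart (0.73, standard error 0.22, adjusted p = 0.0193). The *SNHG4* call was lost in DESeq2 (adjusted p = 0.061), with no filter (adjusted p = 0.0594), without control replicate 2 (0.65, adjusted p = 0.0631) and without sgUSP22 replicate 2 (0.45, adjusted p = 0.198).

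The 12 tested hosts under 10 CPM were less precise, with 2 falls (16.7%), 2 rises (16.7%) and a median of -0.17. Neither share exceeded that of all tested genes of any level, of which 25.8% fell and 26.8% rose. The falls were *SNHG10*, with 403 and 510 counts in control and 375 and 349 counts in sgUSP22 (log2 fold change -0.41, adjusted p = 0.0345, edgeR), and *SNHG11*, with 324 and 301 against 273 and 204 counts (-0.47, adjusted p = 0.0450). Neither held in DESeq2, where the adjusted p values were 0.107 and 0.138. Of the 8 that did not pass, *SNHG19* and *SNHG20* were above control in both sgUSP22 libraries and *SNHG9*, *SNHG22*, *SNHG25* and *SNHG26* below it, while *SNHG28* and *SNHG31* overlapped. Their counts ran from 0 to 418. *SNHG22* had 48 and 61 counts in control and 32 and 0 counts in sgUSP22, so its fitted value of -1.84 (standard error 0.93, adjusted p = 0.125) rests on 1 library listed at 0, and without that library it was -0.86. Without control replicate 1, *SNHG20* passed (0.56, adjusted p = 0.0186).

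**Figure D2:**
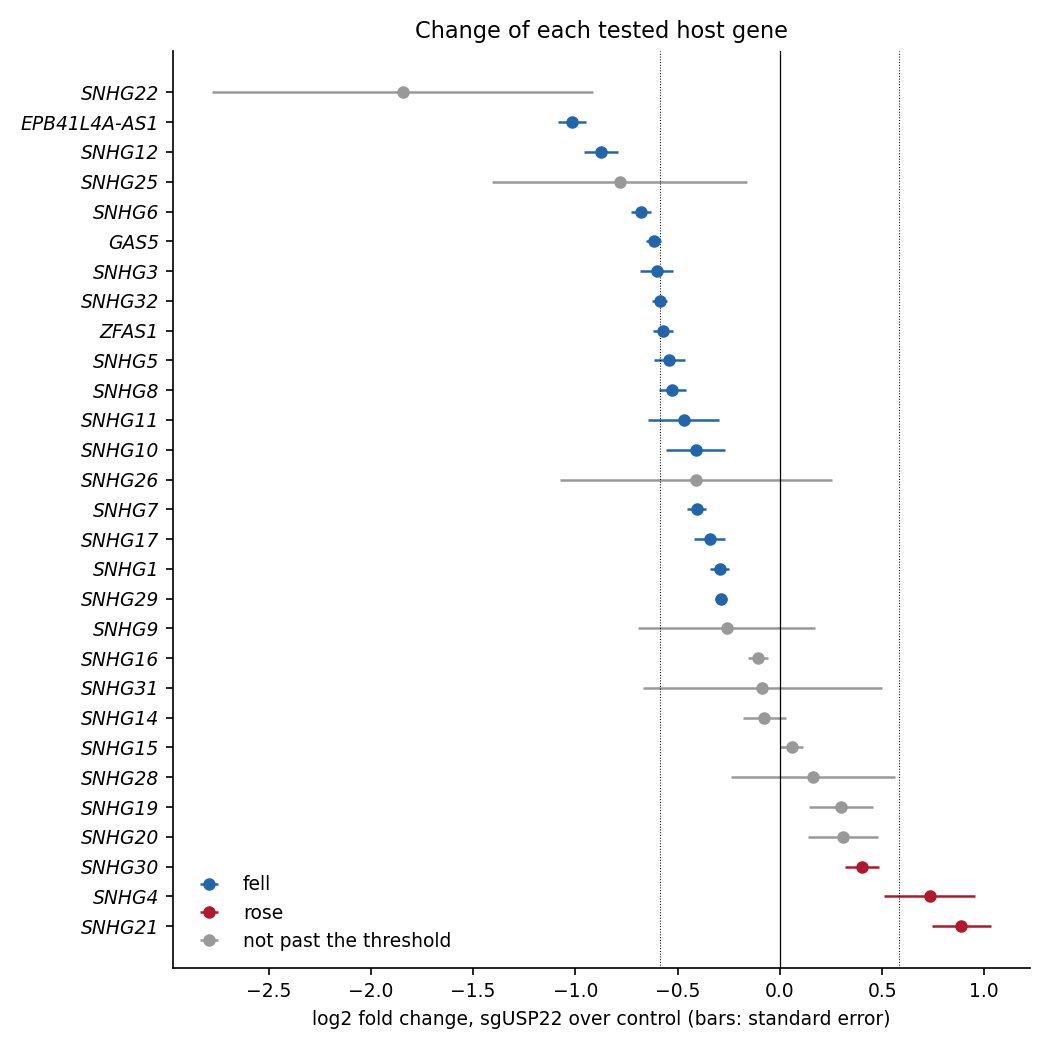
The log2 fold change of sgUSP22 over control for the 29 tested hosts, with standard errors as bars. Blue marks hosts that fell, red those that rose and grey those not past the threshold, and dotted lines mark 1.5-fold. Values run from -1.84 in *SNHG22*, which did not pass, to 0.89 in *SNHG21*.

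Ribosomal protein genes fell almost as one group, whereas the hosts were spread out. Of 77 ribosomal protein genes, 76 fell and 0 rose in edgeR (0 also at an unadjusted p below 0.05 and in DESeq2). Over all genes tested, 25.8% fell and 26.8% rose. All 77 ribosomal protein genes lay below control in both sgUSP22 libraries (37.6% of all genes did so). Their median log2 fold change was -0.42, with a range from -0.92 to -0.08. The lowest adjusted p values were those of *RPS24* (-0.92, adjusted p = 3.01e-08), *RPL36* (-0.65, adjusted p = 6.31e-07) and *RPL37* (-0.51, adjusted p = 7.42e-07). The host median of -0.41 was close to the ribosomal one. The middle 50% of all 29 tested hosts ran from -0.59 to -0.08, and that of ribosomal protein genes from -0.47 to -0.30. The host values mix levels of abundance. The 17 hosts of at least 10 CPM had a median of -0.53 and a middle 50% from -0.60 to -0.29. The 12 tested hosts under 10 CPM had a median of -0.17 and a middle 50% from -0.43 to 0.30. Ribosomal protein genes took 5.88% and 5.86% of all counts in control and 4.68% and 4.52% in sgUSP22. In all, 4 of the 77 (5.19%) were lower by 1.5-fold, against 6 of 29 hosts (20.7%) and 7.25% of all tested genes. The difference between the lists was not tested, since genes are not replicates.

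Of 23 other TOP mRNAs, which encode elongation factors, poly(A)-binding protein and the like, 21 fell and 0 rose in edgeR (1 rose at an unadjusted p below 0.05 and 1 in DESeq2), and the median was -0.21. *PABPC1*, the cytoplasmic poly(A)-binding protein, had a log2 fold change of -0.40 (adjusted p = 2.50e-06, edgeR), *EEF1G* of -0.50 (adjusted p = 2.60e-06) and *RACK1* of -0.37 (adjusted p = 6.35e-06). In a chosen list of 25 protein-coding genes that also hold snoRNAs in introns, 12 fell (48%) and 5 rose (20%), with a median of -0.07. Over all genes tested, the shares were 25.8% and 26.8%. Ribosomal protein genes, some of which also hold snoRNAs, were counted separately above. Among the genes of the chosen list of 25 that fell, *PPAN* (-0.76), *RACK1* and *EEF2* (-0.30), a translation elongation factor, had the lowest adjusted p values. Among those of the list that rose, *CNOT1* (0.26), *WDR43* (0.28) and *NOP56* (0.16) had the lowest.

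Genes of the machinery around these transcripts went both ways. Of 19 snoRNP proteins, 9 fell and 4 rose, with a median of -0.07. *FBL*, the 2′-O-methyltransferase of box C/D particles, fell (-0.48, adjusted p = 6.45e-06, edgeR), as did *SNU13* (-0.47) and *NOLC1* (-0.68), while *NOP56* and *NOP58* (0.24), the core proteins that bind beside it, and *COIL* (0.57) rose. Among 19 NMD factors, 8 fell and 6 rose around a median of -0.06, with the central helicase *UPF1* at -0.46 (adjusted p = 6.78e-06), *RNPS1* at -0.37 and *EIF4A3* at -0.30, and with *XRN1* at 0.51, *SMG8* at 0.50 and *DCP2* at 0.43. Of 21 known NMD target mRNAs, 9 fell and 7 rose, with a median of -0.06. *GADD45B* (-2.06), *GADD45A* (-0.79) and *SRSF3* (-0.55) led the falls and *TBL2* (0.46), *HNRNPH1* (0.32) and *TRA2B* (0.31) the rises. Of 20 genes of mTORC1 and the LARP family, 7 fell and 5 rose, with a median of -0.10. *LAMTOR1* (-0.46), *MLST8* (-0.32) and *EIF4EBP2* (-0.33) were among the former, and *RPS6KB1* (0.56), *LARP4* (0.44) and *LARP4B* (0.45) among the latter. The shares of these lists that fell, 35.0% to 47.4%, stand beside 25.8% of all genes. The shares that rose, 21.1% to 33.3%, lie on both sides of the 26.8% of all genes.

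The tract at the listed start did not divide the hosts cleanly by direction. Of the 6 tested hosts that carry it, *SNHG12*, *SNHG32*, *ZFAS1* and *SNHG5* fell, *SNHG4* rose and *SNHG19* did not pass, and their median log2 fold change was -0.56. Of the 19 tested hosts with an entry but no tract at the start, 10 fell and 2 rose, with a median of -0.34. Allowing 5 bases, the medians were -0.41 with the tract and -0.35 without it. With canonical starts the split differed. All 4 hosts with the tract exactly at that start fell (median -0.59), and of the 25 tested hosts without it 11 fell and 3 rose (median -0.34). Allowing 5 bases, 7 of 8 with the tract fell and 0 rose (median -0.55), against 8 falls and 3 rises among 21 without it (-0.26). The differences between these medians were not tested. The E-box letters CACGTG, read on both strands over the whole 300-base promoter, were found in 2 of 27 hosts, *SNHG7* and *SNHG30*, and in 7.43% of all promoters. TATAAA was found in 4 of 27 (14.8%) and in 12.0% of all promoters. Among tested genes, TATAAA was in 4 of 25 hosts (16%) and in 5.97% of 11359 promoters. CACGTG was in 2 of these 25 hosts (8%) and in 10.1% of these promoters. These differences were not tested.

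**Figure D3:**
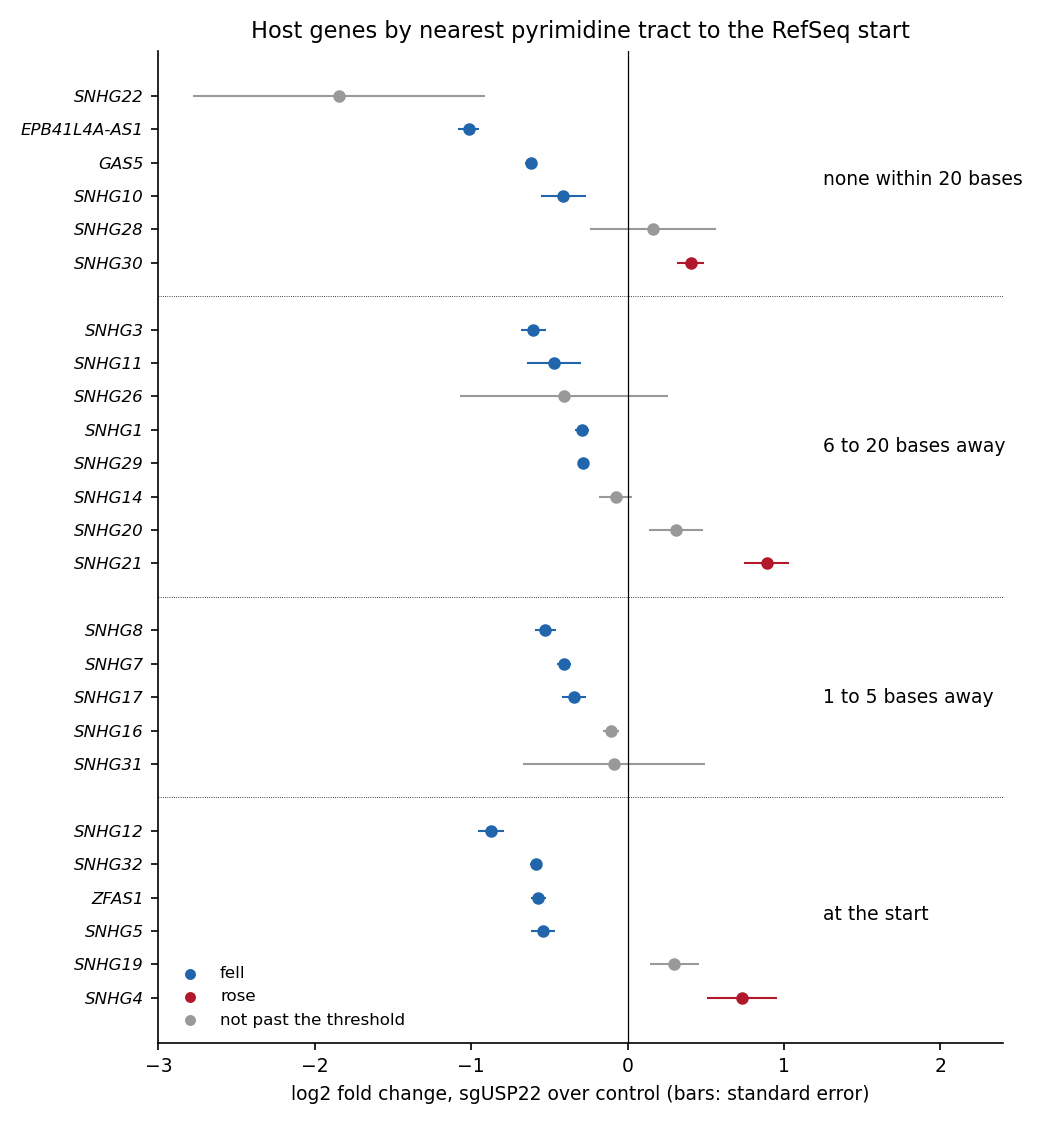
The log2 fold change with its standard error for the 25 tested hosts with a RefSeq promoter entry, in 4 panels by how far the nearest pyrimidine tract begins from the listed start. Falls (blue) occur in all 4 panels, and rises (red) in all but the panel of 1 to 5 bases.

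The table also counts snoRNA genes inside the hosts. These counts are not a measure of mature snoRNA, since StringTie derives them from reads over the locus, including those from unspliced host RNA, and since the sources used here speak both of total RNA and of mRNA and describe no selection step. Of 146 snoRNA and small Cajal body RNA symbols inside 29 hosts, 83 lie in *SNHG14* and 40 in all passed the filter, none in *SNHG14*. Of these 40, 31 overlap an exon of at least 1 GENCODE transcript of their host other than those typed as retained introns, and 9 do not. A total of 15 of the 40 (37.5%, against 25.8% of all tested genes) fell and 0 rose in edgeR (1 rose at an unadjusted p below 0.05 and 0 in DESeq2), and the median log2 fold change was -0.96. The 15 that fell also passed 1.5-fold. Outside the hosts, 27 of 50 tested snoRNAs in ribosomal protein genes (54%) fell, with a median of -1.33. In other genes 21 of 78 fell (26.9%), a share near the 25.8% of all tested genes, with a median of -0.45. In both, 0 rose in edgeR or DESeq2, and 0 at an unadjusted p below 0.05. Of 69 other tested genes with transcripts under 200 bases, 7 fell and 3 rose, with a median of -0.22.

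Box C/D snoRNAs of *SNHG1*, an H/ACA snoRNA of *SNHG3* and the *SNHG29* snoRNA with the highest value are shown, since the comparison with their hosts turns on them. Capitals mark the C box, searched as TGATGA, and the D box, searched as CTGA, or for SNORA73B the ACA triplet near the 3′ end. SNORD27 and SNORD29 fell, SNORD31 of the same host and SNORD49A did not pass, and SNORA73B fell. The sequences are from hg38.
SNORD27 in *SNHG1* (chr11:62855012-62855083, minus strand): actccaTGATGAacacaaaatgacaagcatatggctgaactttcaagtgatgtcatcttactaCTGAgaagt
SNORD29 in *SNHG1* (chr11:62853904-62853968, minus strand): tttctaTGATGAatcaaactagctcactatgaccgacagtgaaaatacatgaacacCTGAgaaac
SNORD31 in *SNHG1* (chr11:62853326-62853393, minus strand): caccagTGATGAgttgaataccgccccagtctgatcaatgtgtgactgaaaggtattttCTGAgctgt
SNORA73B in *SNHG3* (chr1:28508558-28508762, plus strand): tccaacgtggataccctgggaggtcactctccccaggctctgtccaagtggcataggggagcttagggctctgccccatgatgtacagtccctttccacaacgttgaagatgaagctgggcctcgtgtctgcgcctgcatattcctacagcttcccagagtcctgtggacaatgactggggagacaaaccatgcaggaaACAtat
SNORD49A in *SNHG29* (chr17:16440036-16440106, plus strand): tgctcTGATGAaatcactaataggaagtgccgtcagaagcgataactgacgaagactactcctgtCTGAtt

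In *SNHG1*, 5 of 7 tested snoRNAs fell. SNORD28 had 170 and 164 counts in control and 29 and 52 counts in sgUSP22 (log2 fold change -2.12, standard error 0.31, adjusted p = 2.88e-04, edgeR). SNORD27 had 169 and 164 counts against 43 and 50 counts (-1.92, adjusted p = 1.31e-04), and SNORD29 had 198 and 179 counts against 42 and 62 counts (-1.93, adjusted p = 1.87e-04). Each was near 25% of control, at 23.1%, 26.5% and 26.2%, beside 81.5% for the host gene. SNORD26 (-1.64) and SNORD30 (-1.25) fell as well. SNORD22, with 247 and 231 against 169 and 226 counts (-0.35, adjusted p = 0.156), and SNORD31, with 85 and 80 against 64 and 68 counts (-0.40, adjusted p = 0.259), did not pass.

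In *GAS5*, 7 of 10 tested snoRNAs fell. SNORD79 had 206 and 202 counts in control and 71 and 76 counts in sgUSP22 (log2 fold change -1.55, standard error 0.21, adjusted p = 1.77e-04, edgeR), and SNORD80 had 263 and 231 against 100 and 110 counts (-1.31, adjusted p = 3.09e-04). SNORD74, SNORD77 and SNORA103 had values of -1.73, -1.70 and -1.56, and SNORD76 and SNORD47 values of -0.93 and -0.85. SNORD44, SNORD78 and SNORD81, with values from -0.39 to -0.29, did not pass, although they lie within the same gene. The fitted value of every tested snoRNA in *GAS5* and *SNHG1* was below 0.

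Both snoRNAs of *SNHG3* fell, SNORA73B with 144 and 110 counts in control and 37 and 62 in sgUSP22 (-1.44, adjusted p = 0.00415, edgeR) and SNORA73A with 89 and 84 against 32 and 58 (-1.02, adjusted p = 0.0356). SNORD87 of *SNHG6* had 89 and 81 counts against 24 and 23 (-1.93, adjusted p = 0.00107). In *SNHG29*, which fell, SNORD49A had 30 and 31 counts in control and 51 and 76 counts in sgUSP22 (0.98, standard error 0.38, adjusted p = 0.0553), SNORD49B 9 and 7 against 14 and 15 counts (0.77, adjusted p = 0.395) and SNORD65 74 and 74 against 67 and 75 counts (-0.14, adjusted p = 0.717). None of the 3 passed. The other 17 tested snoRNAs did not pass either, with 92 or fewer counts in any library. Differences between a snoRNA and its host were not tested. With trends on GC content and transcript length removed, the median of the 40 snoRNAs was -0.48 in place of -0.96, 13 fell and 1, SNORD49A, rose. Without control replicate 1 or sgUSP22 replicate 1 the median was -0.84 or -0.76.

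**Figure D4:**
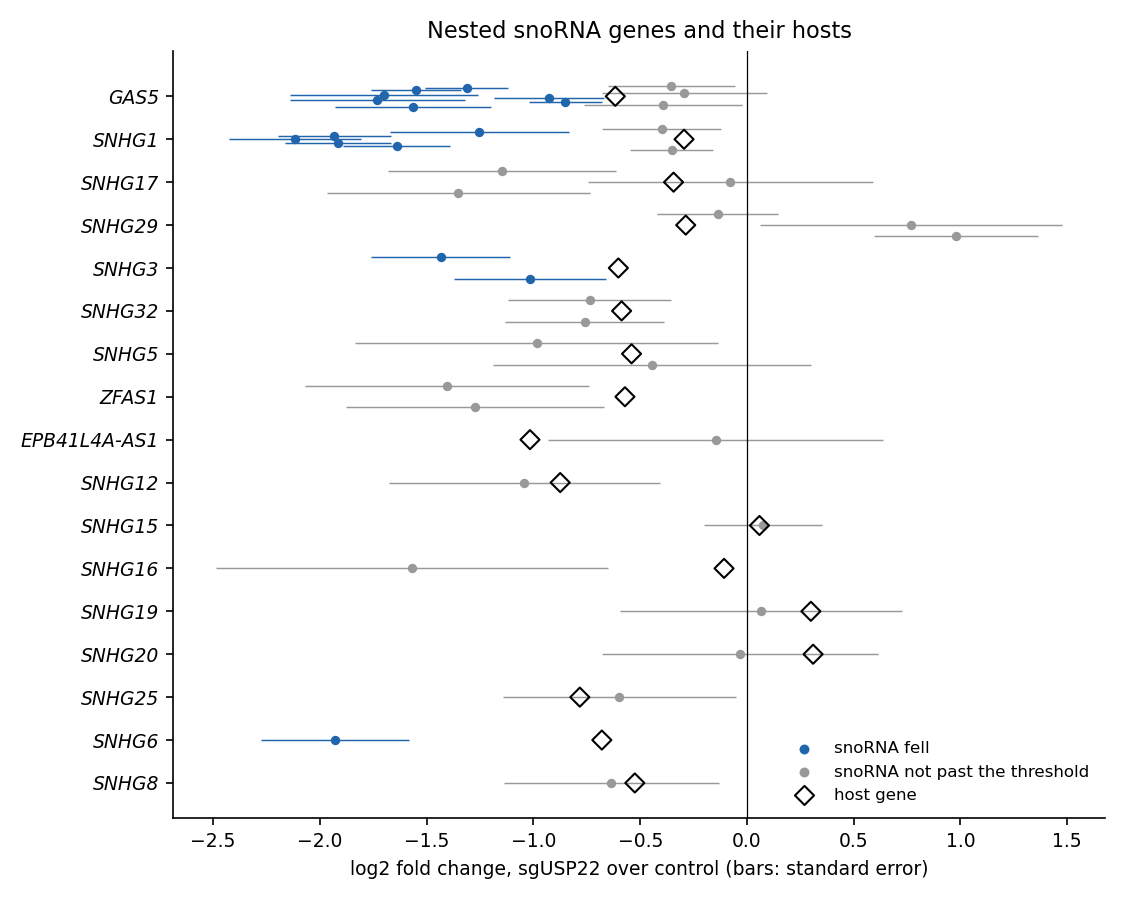
The log2 fold change and standard error of the 40 tested snoRNA genes by host (circles, blue where they fell and grey where not past the threshold), with the host gene as an open diamond. In *SNHG1* and *SNHG3* every tested snoRNA lies left of the diamond. In *GAS5* the 7 that fell lie left of it and the 3 that did not pass lie right of it. In *SNHG29* 2 of 3 lie right of it.

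Neighbours of the hosts were compared because the strand setting of the counting is not stated, so that reads of overlapping genes on opposite strands cannot be told apart. At 8 hosts a gene on the opposite strand starts within 1 kb (GENCODE 44). *ZNFX1*, a helicase gene, starts 248 bases from the outermost start of *ZFAS1* and overlaps it over 249 bases. It had 6615 and 6665 counts in control and 10882 and 10561 counts in sgUSP22 (log2 fold change 0.61, adjusted p = 9.92e-07, edgeR), opposite in direction to *ZFAS1*. *ZBTB37* starts inside the annotated *GAS5* gene, 800 bases from its outermost start, and overlaps it over 801 bases. It had 971 and 901 against 1643 and 1835 counts (0.82, adjusted p = 6.29e-05, edgeR), again opposite to the host. *SLC3A2*, which encodes the heavy chain of the cystine transporter and starts 51 bases from *SNHG1*, fell like it, with 49504 and 50780 against 38256 and 35562 counts (-0.52, adjusted p = 1.85e-06).

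*RPS2*, a ribosomal protein gene 54 bases from *SNHG9*, had a log2 fold change of -0.60 (adjusted p = 1.15e-06, edgeR) while *SNHG9*, with 29 to 35 counts, did not pass. *ACAA2* beside *SNHG22* fell (-0.36, adjusted p = 2.23e-04), and so did *TRAF7* beside *SNHG19* (-0.32, adjusted p = 5.86e-05). *BARD1* beside *SNHG31* did not pass (0.13, adjusted p = 0.0942), and *SEMA5A* beside *SNHG18* had at most 4 counts.

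Among other overlapping genes on the opposite strand, some moved with their hosts and some against them. *EPB41L4A* had 625 and 545 counts in control and 1121 and 1313 counts in sgUSP22 (0.98, adjusted p = 9.04e-05, edgeR), the reverse of *EPB41L4A-AS1*. *LRRC75A*, opposite *SNHG29*, rose (0.65, adjusted p = 9.47e-04), and *PRSS12*, opposite *SNHG8*, fell (-0.71, adjusted p = 2.25e-04) with its host. *TRNAU1AP*, opposite *SNHG12*, rose (0.29), and *UBE3A* and *MYO5B*, opposite *SNHG14* and *SNHG22*, rose (0.30 and 0.73). *FSD2*, opposite *SNHG21*, rose (0.92) in the direction of its host, and *SLAMF8*, opposite *SNHG28*, fell (-1.65). *GLRX5*, *SIL1*, *MCMDC2*, *DIPK1B*, *ABCA12*, *ST6GALNAC2* and *GAS5-AS1* did not pass, and *ST6GALNAC1* was not tested.

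On the same strand, *RCC1* overlaps *SNHG3* over 4913 bases and fell (-0.28, adjusted p = 2.34e-04, edgeR), *MATR3* overlaps *SNHG4* and rose (0.13, adjusted p = 0.0237), and *SEC14L1*, which overlaps *SNHG20*, did not pass (-0.01). Counts of these pairs may share reads. Within *SNHG14*, *PWAR5* rose (0.77, adjusted p = 0.00266), *SNRPN* did not pass and *PWAR1* had 0 counts, and *VSIG8* at *SNHG28* did not pass. *MYO1G*, the neighbour of *SNHG15* and chosen after its values were seen, had 897 and 828 counts in control and 14644 and 14340 counts in sgUSP22, while *SNHG15* itself did not pass.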

How the data were processed

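RNA-seq of Sorafenib-treated control and sgUSP22 HepG2 cells was examined, 2 libraries per group. The authors aligned reads to hg38 with HISAT2 2.2.1 and deposited whole-number gene counts from StringTie 2.2.1, not scaled to library size. The annotation, strand setting and read length are not given in the sources used here. Columns were assigned to samples by name, and 0 were left unassigned. Totals were 62030307 to 64728272 counts.

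Counts were fitted in R 4.3.3 with edgeR 4.0.16 (TMM, filterByExpr with a minimum count of 10, glmQLFit, glmQLFTest), and p-values were adjusted over all genes tested. Standard errors come from the F statistic, as the absolute log2 fold change over its square root. "Fell" and "rose" mean an adjusted p below 0.05. Levels in CPM use TMM-scaled library sizes. An exact permutation test of 2 against 2 libraries cannot go below p = 0.333 and was not used. The procedure was tested on counts simulated from the library means with 200 changed genes. There edgeR recovered 76% of 1.5-fold and 90% of 2-fold changes, with 19 false calls among 14896 genes. DESeq2 recovered 82% and 90%, with 18 false calls among 15150 genes. In the data far more genes passed, 3904 lower and 4057 higher of 15150 tested. The recovery figures are not split by level of counts, so they cannot be applied to hosts and snoRNAs with low counts.

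Host genes, lists and tests were chosen with earlier results of these data known. Alternatives were DESeq2 1.42.0, a correction for GC content and length, the replicate block, RLE factors, scaling by library size alone, dropping the filter, requiring a mean of 50 counts, and leaving out each library. For snoRNAs, other TOP mRNAs and the count of ribosomal protein genes these were added after seeing the data. Same-group libraries differed beyond sampling noise (mean chi-square per gene 8.11 and 8.51). Promoters were read from RefSeq (GRCh38.p14) at the first start listed per gene, and, as an addition after seeing the data, at the start of the GENCODE 44 canonical transcript, and 21 of 21 windows compared were identical to hg38. Gene positions came from GENCODE 44, which matched 25763 of 28278 symbols. Values in every library are given for tested hosts with a mean of at least 10 CPM or past 1.5-fold. The 3 genes of lowest adjusted p in each direction are named for each list, and neighbours are those that overlap a host or start within 1 kb of it on the opposite strand, some of which are not reported here.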

Additional observations from a re-analysis of the deposited data

How the results depend on the processing

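The count of hosts that fell was 13 to 16 and of hosts that rose 2 to 3 under the 7 alternatives other than leaving out a library, and 13 to 15 and 2 to 4 without 1 library. The count lower by 1.5-fold, 6, depended most on the setting, since several hosts lie near that fold: it was 3 with library size alone, 3 without control replicate 1, 10 without sgUSP22 replicate 1, and between 3 and 10 over all libraries left out. The count higher by 1.5-fold, 2, was 1 in DESeq2, 1 with no filter, and 1 to 2 without 1 library, being 1 without control replicate 2 or sgUSP22 replicate 2. The host median of -0.41 was -0.35 with library size alone, which moves the median of all genes by 0.053, and -0.33 with the GC and length correction, and ran from -0.46 to -0.32 without 1 library. The ribosomal protein median of -0.42 was -0.36 and -0.37 under the same settings and ran from -0.47 to -0.37. The cause was not tested.

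Of 198 values of single hosts under the other alternatives, 186 kept direction and side of the threshold, 9 lost significance (*SNHG4*, *SNHG10*, *SNHG11*), 3 gained it (*SNHG14*, *SNHG16*, *SNHG22*) and 0 reversed. Of 116 without 1 library, 99 kept both, 8 lost significance, 4 gained it and 5 reversed, all in hosts that had not passed. These were *SNHG28* (-0.09 without control replicate 1, -0.29 without sgUSP22 replicate 1, range -0.29 to 0.50), *SNHG31* (0.20 without control replicate 1, 0.46 without sgUSP22 replicate 2, range -0.99 to 0.46) and *SNHG14* (0.11 without control replicate 1, range -0.24 to 0.11). Of 102 values of the 15 snoRNAs that fell, 5 lost significance, as did 9 of 60 without 1 library, and 10 to 15 of the snoRNAs passed there.

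Same-numbered libraries did not vary together (correlation of deviations 0.042), and the labels give only a number. With the replicate number as a block, 16 hosts fell, 3 rose and 7 were lower by 1.5-fold, *SNHG22* passed (-2.42, adjusted p = 0.0203), and the host median was -0.41.

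Depth limits hosts of under about 100 counts, whose standard errors reach 0.93. Leaving out a library leaves an arm with 1 library, assumed to vary like the other group.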
